A study of Mus musculus with 2 samples.

Results

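The genes described here are 10 genes of developing T cells (thymocytes) and of the thymic epithelium that supports them, measured by RNA-seq in 2 libraries of fetal mouse lung: Cd3d, Cd3e, Cd3g, Ptcra, Rag1, Il7r, Cd8b1, Lck, Themis and Psmb11. They are 10 of the 43346 gene rows in each library, and each was found by its gene identifier. The genes were picked because their levels differed between the 2 pools, so that difference chose them and is given below as a description with no test. Both libraries came from healthy embryos of mouse strain B6NCrl on embryonic day 16.5, with no treatment or transgene named in the labels, and both are labelled biological replicates of 1 group. Replicate 2 was made from the pooled lungs of 41 male and female embryos, and replicate 1 from a mixed-sex pool whose size the labels do not state. As each library is a pool of whole lungs, the spread between embryos was not measured, and a difference between the libraries can hold technical as well as biological spread. In bulk tissue, fewer cells of a type and less RNA per cell cannot be told apart.

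T cells develop in the thymus, which lies in the chest above the heart and beside the upper lungs. Immature thymocytes cut and join the DNA of their antigen receptor genes with the RAG recombinase, first pair a rearranged beta chain with the invariant pre-T alpha chain, and signal through the CD3 chains and the kinase LCK. Cells that pass this step go on to carry both CD4 and CD8 and are then selected on peptides that the thymic epithelium displays, some of them made by a proteasome of cortical epithelial cells that contains PSMB11. The fetal lung is not a site of T cell development, and none of these genes is known as a marker of lung epithelium or mesenchyme.

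Levels are given in TPM, transcripts per 1000000, which divide reads by effective length and scale each library to the same total. The reads behind them are expected counts, estimates that share out each read fitting more than 1 gene. Replicate 2 held 27145411 expected counts and replicate 1 held 38852470, so replicate 1 was the deeper library. A count of 0 in a gene of 2 kb allows up to 0.0852 TPM in replicate 2 against 0.0604 TPM in replicate 1, from a limit of 3 counts. The lung markers Sftpc, Nkx2-1 and Ager stood at 14172, 62.6 and 400 TPM in replicate 2 and at 10883, 77.0 and 318 TPM in replicate 1, so both libraries carry the labelled tissue. Intervals around counts, and around ratios of counts, are exact 95% intervals that cover counting error only.

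All 10 genes were higher in replicate 2. Their summed level was 65.0 TPM in replicate 2 against 25.1 TPM in replicate 1, and their median level was 4.78 TPM in replicate 2 against 1.51 TPM in replicate 1. The sum rested on 2093 expected counts in replicate 2 and 1144 in replicate 1, which is 77.1 counts per 1000000 in replicate 2 and 29.4 in replicate 1, a ratio of 2.62 (95% counting interval 2.44 to 2.82). Lck and Cd3g together held more than all the other genes, at 34.1% and 21.3% of the summed TPM in replicate 2 and at 36.2% and 20.7% in replicate 1. The order by mean level was Lck, Cd3g, Cd3e, Cd3d, Ptcra, Psmb11, Rag1, Cd8b1, Themis and Il7r. Of the 9 neighbouring pairs in this order, 8 differed in mean by less than the larger SD of the pair, the exception being Themis over Il7r. Within the libraries, 3 neighbouring pairs were placed differently: replicate 2 had Cd3d above Ptcra, Psmb11 above Rag1 and Cd8b1 above Themis, and replicate 1 had each of these pairs the other way round.

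**Figure D1:**
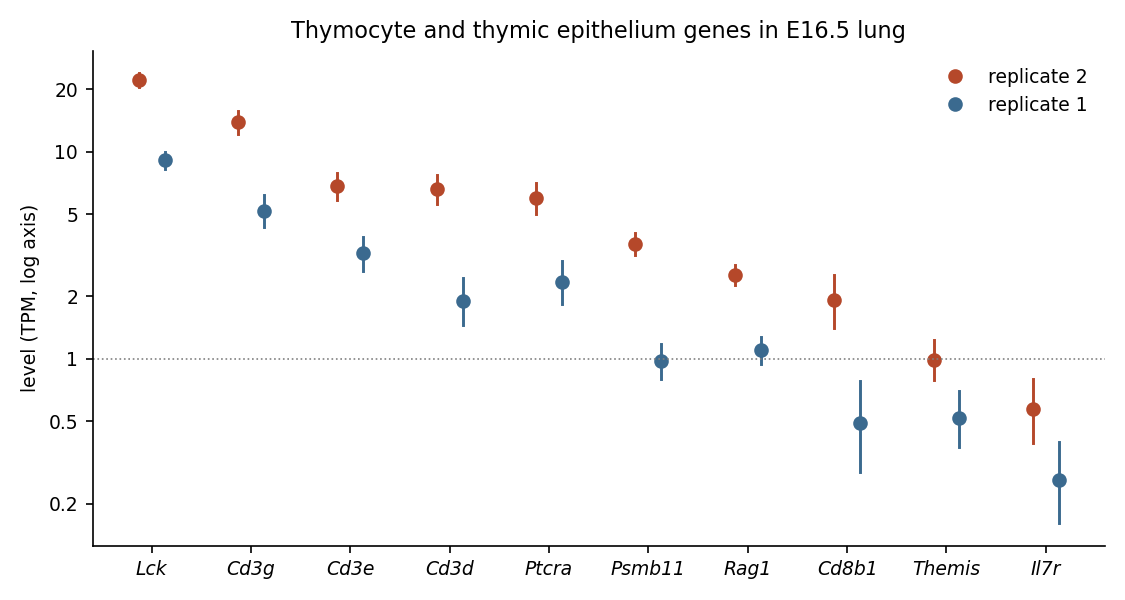
Level of each gene (TPM, log axis) in replicate 2 (left) and replicate 1 (right), with exact 95% Poisson intervals of the counts scaled to TPM. Replicate 2 is the higher library for all 10 genes. Lck is highest, at 22.2 TPM in replicate 2 against 9.09 TPM in replicate 1, and Il7r lowest, at 0.570 TPM in replicate 2 against 0.260 TPM in replicate 1; the dotted line marks 1 TPM.

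The 3 CD3 genes encode the invariant chains that carry the signal of the T cell receptor into the cell. Cd3g had 13.8 TPM in replicate 2 against 5.19 TPM in replicate 1 (237 expected counts in replicate 2, 121 in replicate 1), with a mean of 9.52 ± 6.12 TPM (SD, n = 2). Cd3e had 6.82 TPM in replicate 2 against 3.23 TPM in replicate 1 (169 counts in replicate 2, 113 in replicate 1). Cd3d had 6.61 TPM in replicate 2 against 1.91 TPM in replicate 1 (150 counts in replicate 2, 61 in replicate 1). Replicate 2 was higher for each chain, by a TPM ratio of 2.67 for Cd3g, 2.11 for Cd3e and 3.46 for Cd3d. The counting intervals of their count ratios, 2.24 to 3.52 for Cd3g, 1.68 to 2.74 for Cd3e and 2.60 to 4.82 for Cd3d, overlapped one another. The authors' credibility bounds of TPM, which measure the precision of the estimate within a library, ran from 5.48 to 7.53 TPM in replicate 2 against 1.43 to 2.37 TPM in replicate 1 for Cd3d, and they were apart for Cd3e and Cd3g as well. An antisense RNA, Gm48719, and a gene on the same strand, Gm48720, are annotated over Cd3e, and the authors give no level for either. As the strand setting of the libraries is not given, reads of Gm48719 and Cd3e cannot be told apart. Strand would not separate reads of Gm48720 from those of Cd3e.

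The CD3 genes are neighbours on chromosome 9 (build mm10), within 40056 bases. Cd3g (44969572 to 44980431, minus strand) and Cd3d (44981786 to 44987339, plus strand) point away from each other with 1355 bases between their starts, and Cd3e (44998740 to 45009627, minus strand) lies beyond the 3′ end of Cd3d. The 250 bases before the start of Cd3g (chr9:44980432-44980681, minus strand) and of Cd3d (chr9:44981536-44981785, plus strand) are shown because they flank this shared interval and because the genes differed in level within each library, with Cd3g about 2-fold or more above Cd3d. They are RefSeq sequence on GRCm38.p6, written 5′ to 3′ on the strand of the gene, with matches to the motifs searched in capitals.
Cd3g: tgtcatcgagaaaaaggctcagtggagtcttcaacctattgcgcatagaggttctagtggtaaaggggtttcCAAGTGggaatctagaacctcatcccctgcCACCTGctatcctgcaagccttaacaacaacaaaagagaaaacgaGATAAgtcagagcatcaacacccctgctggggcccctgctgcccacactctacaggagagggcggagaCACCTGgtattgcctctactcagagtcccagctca
Cd3d: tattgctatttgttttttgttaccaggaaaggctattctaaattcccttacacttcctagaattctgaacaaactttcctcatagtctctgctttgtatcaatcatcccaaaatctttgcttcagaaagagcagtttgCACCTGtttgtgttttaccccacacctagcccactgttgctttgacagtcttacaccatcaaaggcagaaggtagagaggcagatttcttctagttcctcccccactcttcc
In Cd3g the capitals mark 3 E boxes (CANNTG, the letters bound by E proteins) and 1 GATA match (GATAA, here at -103 to -99 from the start). In Cd3d they mark 1 E box, at -112 to -107. Motifs were searched on both strands. An E box is found in 66.2% and a GATA match in 22.6% of the 32851 mouse promoters of this length in the same table, so the E box is common, and a match is a description of letters and no evidence of binding.

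Ptcra encodes the pre-T alpha chain, which is made by immature thymocytes and is silent in mature T cells. It had 5.97 TPM in replicate 2 against 2.36 TPM in replicate 1 (131 counts in replicate 2, 73 in replicate 1), with a mean of 4.17 ± 2.55 TPM (SD, n = 2). The TPM ratio was 2.53, and the counting interval of the count ratio was 1.92 to 3.47. Ptcra lies on chromosome 17 (46755663 to 46763712, minus strand). Of the summed TPM of the 10 genes it took nearly the same share, 9.18% in replicate 2 and 9.39% in replicate 1.

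Rag1 encodes the recombinase subunit that cuts antigen receptor genes in immature T and B cells. It had 2.55 TPM in replicate 2 against 1.10 TPM in replicate 1 (307 counts in replicate 2, 187 in replicate 1), a TPM ratio of 2.32, and the count ratio of 2.35 had a counting interval of 1.95 to 2.83. Rag1 (chromosome 2, 101638282 to 101649501, minus strand) is a long transcript, so a low TPM rests on many reads, and only Lck had more counts in replicate 2. An annotated coding gene, B230118H07Rik, overlaps Rag1 on the same strand at 49.1 TPM in replicate 2 against 49.0 TPM in replicate 1. Reads of shared sequence could be divided between these 2 genes by the estimator.

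Il7r encodes the receptor chain for interleukin 7, the cytokine that early thymocytes and innate lymphoid cells need to survive. It was the lowest of the genes, at 0.570 TPM in replicate 2 against 0.260 TPM in replicate 1 (33 counts in replicate 2, 21 in replicate 1). The counting interval of its count ratio, 1.26 to 4.09 around 2.25, stayed above 1 but was wide. The credibility bounds were 0.384 to 0.765 TPM in replicate 2 against 0.160 to 0.379 TPM in replicate 1, which come close but do not overlap. Il7r lies on chromosome 15 (9505788 to 9530176, minus strand).

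Cd8b1 encodes the beta chain of the CD8 co-receptor, which double-positive thymocytes carry together with CD4. It had 1.92 TPM in replicate 2 against 0.490 TPM in replicate 1, on 47 counts in replicate 2 and 17 in replicate 1. The TPM ratio of 3.92 was the highest of the genes, and its counting interval of 2.23 to 7.35 was the widest. Cd8b1 lies on chromosome 6 (71322788 to 71337494, plus strand).

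Themis encodes an adaptor that tunes receptor signalling while double-positive thymocytes are selected. It had 0.990 TPM in replicate 2 against 0.520 TPM in replicate 1, a TPM ratio of 1.90 and the lowest of the genes. By expected counts, 82 in replicate 2 against 42 in replicate 1, the ratio was 2.79 (1.90 to 4.16). The 2 measures differ because the estimator assigned the reads to transcripts of different length, so that the gene length used was 4582 nt in replicate 2 and 3202 nt in replicate 1. In replicate 2, Themis-201 took 83.3% of the TPM and Themis-205 took 0%, whereas in replicate 1 Themis-201 took 57.7% and Themis-205 took 42.3%, a share that rests on 3.07 counts because this transcript is short. By posterior mean estimates Themis-201 took 44.5% in replicate 2 and 30.9% in replicate 1, and Themis-205 took 17.3% in replicate 2 and 36% in replicate 1. The credibility bounds of 0.964 to 1.90 TPM in replicate 2 against 0.373 to 1.07 TPM in replicate 1 overlap. Themis lies on chromosome 10 (28668360 to 28883818, plus strand).

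**Figure D2:**
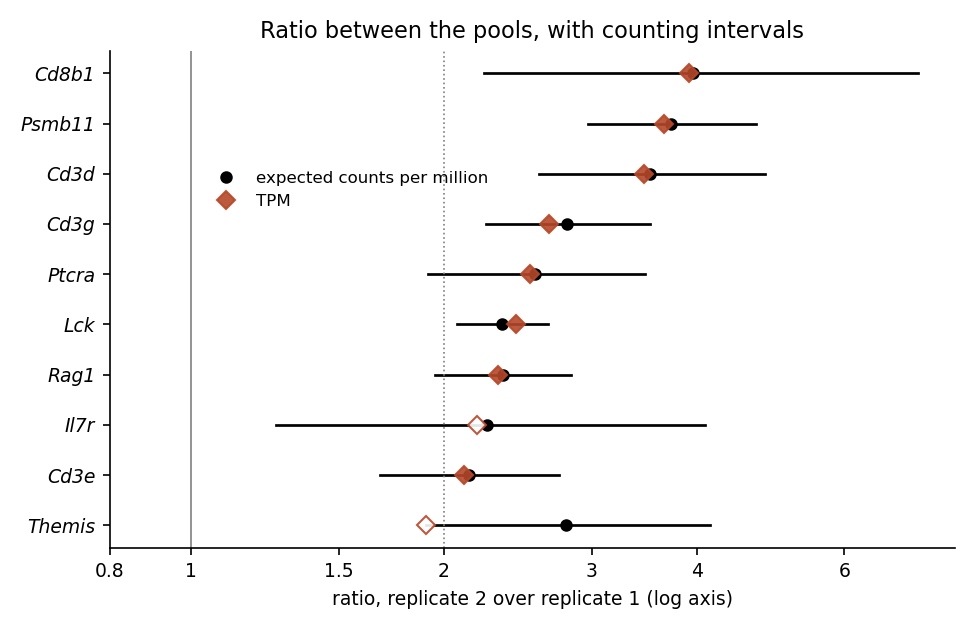
Ratio of replicate 2 to replicate 1 for each gene (log axis), as the ratio of expected counts per 1000000 with its exact 95% counting interval (black) and as the ratio of TPM (diamonds, open where the mean is under 1 TPM). Each interval lies above 1, those of Cd8b1, Psmb11, Cd3d, Cd3g and Lck also lie above 2, and Themis is the gene whose measures stand farthest apart, at 2.79 by counts and 1.90 by TPM.

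Lck encodes the kinase that sits on CD4 and CD8 and phosphorylates the CD3 chains. It was the highest of the genes, with 22.2 TPM in replicate 2 against 9.09 TPM in replicate 1 (661 counts in replicate 2, 403 in replicate 1), and a mean of 15.6 ± 9.25 TPM (SD, n = 2). Replicate 2 was higher by a TPM ratio of 2.44, and the counting interval of the count ratio of 2.35 was 2.07 to 2.66. The credibility bounds were apart, at 20.1 to 25.7 TPM in replicate 2 against 8.53 to 11.6 TPM in replicate 1. By TPM, Lck ranked 6248th among the gene rows in replicate 2 and 9503rd in replicate 1. Relative to Lck, within a library, the CD3 genes kept their order: Cd3g lay at -0.68 on the log2 scale in replicate 2 and -0.81 in replicate 1, Cd3e at -1.70 in replicate 2 and -1.49 in replicate 1, and Cd3d at -1.75 in replicate 2 and -2.25 in replicate 1.

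Lck has a distal and a proximal promoter, 15269 bases apart on chromosome 4 (gene at 129548344 to 129573641, minus strand). From mouse work, the proximal promoter is known to be active in thymocytes, and the distal promoter in maturing thymocytes and peripheral T cells. The 250 bases before each start are shown because the transcripts of Lck were divided between them (RefSeq, GRCm38.p6, distal chr4:129573642-129573891 and proximal chr4:129558373-129558622, both minus strand, motif matches in capitals).
Lck distal: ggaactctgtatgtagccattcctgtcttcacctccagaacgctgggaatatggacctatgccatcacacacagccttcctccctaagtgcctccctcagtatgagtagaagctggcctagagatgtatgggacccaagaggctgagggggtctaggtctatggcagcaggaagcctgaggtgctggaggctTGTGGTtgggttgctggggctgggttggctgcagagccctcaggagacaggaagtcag
Lck proximal: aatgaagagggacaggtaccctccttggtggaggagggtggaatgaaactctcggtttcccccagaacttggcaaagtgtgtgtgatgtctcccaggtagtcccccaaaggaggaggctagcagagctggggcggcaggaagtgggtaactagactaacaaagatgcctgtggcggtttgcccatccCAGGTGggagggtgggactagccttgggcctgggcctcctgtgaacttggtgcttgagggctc
The distal sequence holds 1 match to the RUNX letters TGTGGT at -58 to -53 and no E box, and the proximal sequence holds 1 E box at -63 to -58 and no RUNX match. The RUNX letters are found in 14.1% of all promoters in the table.

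Of the 8 annotated Lck transcripts, 3 start at the proximal promoter, 1 (Lck-202) at the distal promoter and 4 are annotated as retained introns with starts inside the gene. The proximal transcripts had 10.3 TPM in replicate 2 against 6.35 TPM in replicate 1, and the distal transcript had 5.77 TPM in replicate 2 against 0.860 TPM in replicate 1. As a share of the TPM of Lck, the proximal transcripts took 46.4% in replicate 2 and 69.9% in replicate 1. The distal transcript took 26.1% in replicate 2 and 9.43% in replicate 1, and retained introns 27.6% in replicate 2 and 20.7% in replicate 1. The retained intron shares rest on 48.3 of 661 counts in replicate 2 and 21.3 of 403 in replicate 1, because these transcripts are short. The proximal transcripts had the larger share in both libraries, and the distal share was higher in replicate 2. The size of that difference rests on the estimator: by posterior mean estimates the distal share was 21.6% in replicate 2 and 15.1% in replicate 1, and the credibility bounds of the distal transcript, 2.08 to 7.80 TPM in replicate 2 against 0.0111 to 3.56 TPM in replicate 1, overlap. Within the proximal group, Lck-208 took 0% in replicate 2 and 36.3% in replicate 1, transcripts that share most of their sequence and are hard to tell apart.

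**Figure D3:**
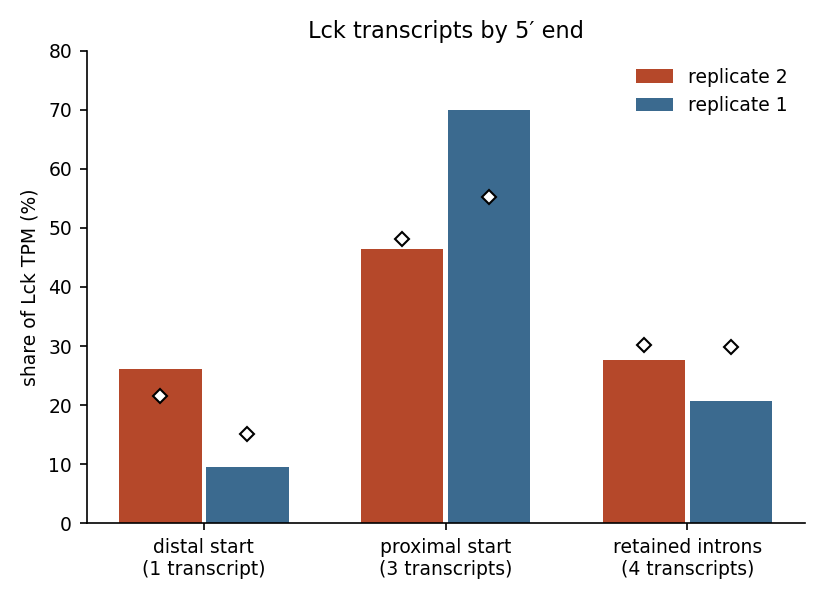
Share of the TPM of Lck (percent) taken by transcripts of the distal promoter, of the proximal promoter and by retained introns, in replicate 2 (left of each pair) and replicate 1 (right of each pair). The proximal promoter has the highest share in both libraries, at 46.4% in replicate 2 and 69.9% in replicate 1, and the distal share is 26.1% in replicate 2 and 9.43% in replicate 1.

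Psmb11 is the one gene of the set that T cells do not make: it encodes the thymoproteasome subunit beta5t of cortical thymic epithelium. It had 3.59 TPM in replicate 2 against 0.980 TPM in replicate 1 (276 counts in replicate 2, 106 in replicate 1), with a mean of 2.29 ± 1.85 TPM (SD, n = 2). The TPM ratio was 3.66 and the counting interval of the count ratio was 2.97 to 4.71. The credibility bounds were 3.08 to 3.90 TPM in replicate 2 against 0.789 to 1.15 TPM in replicate 1, far apart. Psmb11 lay above Rag1 in replicate 2, at a TPM ratio of 1.41, and below it in replicate 1, at 0.891. Its ubiquitous counterpart Psmb5, the beta5 subunit of the standard proteasome, was at 313.5 TPM in replicate 2 against 301.8 TPM in replicate 1, which is 87.3-fold above Psmb11 in replicate 2 and 308-fold above it in replicate 1.

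Psmb11 lies on chromosome 14 and its transcript begins at 54625310 on the plus strand. In mouse its transcription is known to depend on FOXN1, the master regulator of thymic epithelium, which is why the 250 bases before the start are shown (RefSeq, GRCm38.p6, chr14:54625060-54625309, plus strand, motif matches in capitals).
Psmb11: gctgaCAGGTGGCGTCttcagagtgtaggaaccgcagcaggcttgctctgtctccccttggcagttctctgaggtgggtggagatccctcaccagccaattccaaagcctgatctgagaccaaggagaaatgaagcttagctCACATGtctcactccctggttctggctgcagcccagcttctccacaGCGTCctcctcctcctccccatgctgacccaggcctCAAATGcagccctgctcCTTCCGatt
The capitals mark 2 matches to the FOXN1 core letters GACGC, at -239 to -235 and -62 to -58 and both on the opposite strand, where they read GCGTC here, 3 E boxes, the first of which adjoins the first FOXN1 core, and 1 ETS match (CGGAAG, read here as CTTCCG). A FOXN1 core is found in 22.6% and an ETS match in 13.6% of all promoters in the table. Among the 11 promoters of the 9 genes that the table holds, Psmb11 was the only one with either, an E box was found in 10 and the RUNX letters in 2 (Rag1 and Lck distal). The GATA letters were found in Cd3g alone, and the TCF/LEF letters CTTTGAA, present in 4.46% of all promoters, in 0. No match says only that these letters are absent from this window.

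A mean of at least 1 TPM was reached by 8 of the 10 genes, Themis and Il7r being below it. All 8 were at least 2-fold higher in replicate 2, the direction for which the genes were picked, and 3.26% of the 15405 genes with such a mean and a ratio were also at least 2-fold higher. In the other direction, 0 of the 8 and 0.662% of all genes were at least 2-fold lower. The authors' credibility bounds were apart, with replicate 2 higher, for all 8 and for 6.71% of all genes with a mean of 1 TPM or more. Nothing is read from these counts, because the same difference chose the genes. Cd8b1 and Psmb11 were under 1 TPM in replicate 1 and reached the mean through replicate 2. The median ratio was 2.48 over the 10 genes (range 1.90 to 3.92) and 2.60 over the 8, beside 1.00 over all genes that reached the mean, a value that TPM largely sets by scaling both libraries to 1 total.

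**Figure D4:**
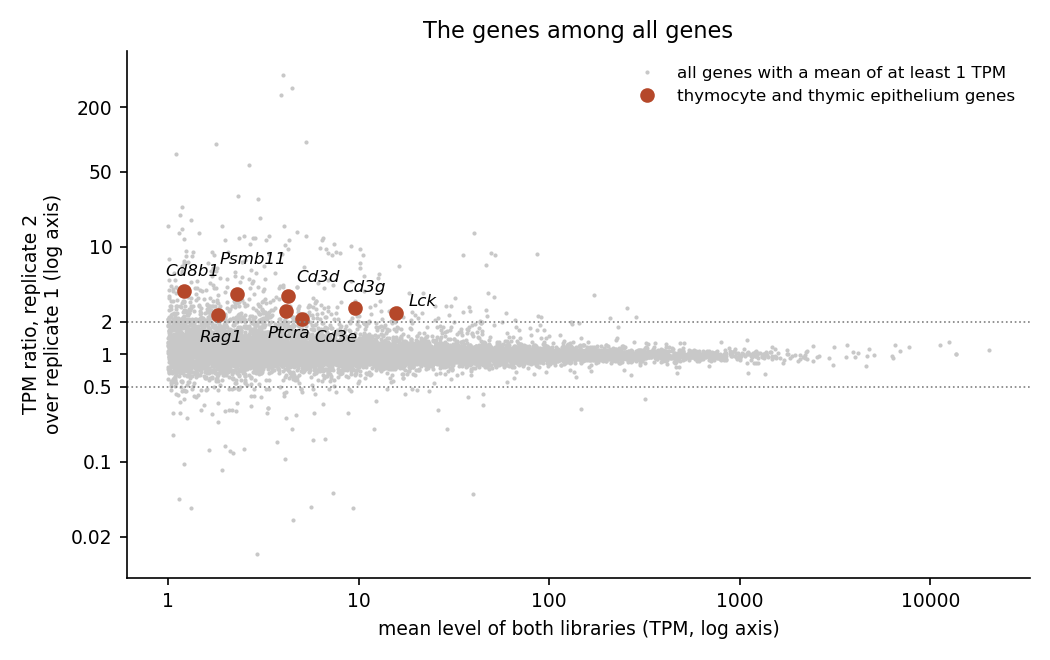
TPM ratio of replicate 2 to replicate 1 (log axis) against the mean level of both libraries (TPM, log axis) for all genes that reach a mean of 1 TPM (grey) and the 8 thymocyte and thymic epithelium genes that reach it (red), with dotted lines at ratios of 2 and 0.5. The 8 genes lie between ratios of 2.11 and 3.92 at mean levels of 1.21 to 15.6 TPM. Nothing is read from their place among all genes, because the same difference chose them.

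Other T cell genes were compared by lists drawn up for their function, each counted over the members whose mean reached 1 TPM. A gene low in 1 library can reach that mean through the other, so counts with no filter are given where they differ. Over all genes at that mean, 3.26% were at least 2-fold higher in replicate 2 and 0.662% lower. With no filter these shares were 10.1% and 3.49% of 22449 genes with a ratio. With no filter more genes hold a 0, which is set to the level of 3 counts, a higher TPM in replicate 2, the shallower library. This can raise a ratio: Prf1, on 0 counts in replicate 2 and 3 in replicate 1, had a ratio of 1.38. The counts of every list below stand beside the shares over all genes. Among 10 further genes of T cell receptor signalling, 3 were at least 2-fold higher in replicate 2 and 0 lower, with a median ratio of 1.38. With no filter 10 of the 20 listed genes were at least 2-fold higher, beside 10.1% of all genes, with a list median of 1.96. The 3 that reached the mean were the adaptor genes Lat (5.87 TPM in replicate 2, 2.45 TPM in replicate 1) and Trat1 (1.57 TPM in replicate 2, 0.650 TPM in replicate 1) and the surface glycoprotein gene Thy1 (2.44 TPM in replicate 2, 1.15 TPM in replicate 1). Trat1 reached it through replicate 2 alone. By counts not divided by length, the kinase gene Zap70 (count ratio 2.17, TPM ratio 1.28) and Cd27 (count ratio 2.02, TPM ratio 1.81) also passed 2-fold. Cd247, the zeta chain that completes the receptor, was at 2.30 TPM in replicate 2 against 1.79 TPM in replicate 1, a ratio of 1.29 and lower than that of any CD3 gene. Its count ratio was 1.53 (1.05 to 2.23), an interval that overlaps that of Cd3e and lies below those of Cd3g and Cd3d. The co-receptor genes Cd4 and Cd8a were estimated below 1 TPM in both libraries. Cd4 was at 0.370 TPM in replicate 2 against 0.10 TPM in replicate 1 (15 counts in replicate 2, 8 in replicate 1). Cd8a was at 0.880 TPM in replicate 2 against 0.170 TPM in replicate 1 (49 counts in replicate 2, 13 in replicate 1). The credibility bounds of Cd4, 0.347 to 1.845 TPM in replicate 2 against 0.136 to 0.958 TPM in replicate 1, overlap. Those of Cd8a, 0.651 to 1.13 TPM in replicate 2 against 0.0981 to 0.283 TPM in replicate 1, were apart. In replicate 2 the upper bounds of both genes pass 1 TPM.

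The receptor chains themselves did not all go the same way. Of 5 constant region genes with a mean of 1 TPM, 4 were at least 2-fold higher in replicate 2, with a median ratio of 2.62. With no filter 5 of 6 were. The added gene was Tcrg-C4, on 13 counts in replicate 2 and 3 in replicate 1. The beta chain genes Trbc1 and Trbc2, near-identical copies between which reads are divided, had 23.4 and 34.4 TPM in replicate 2 and 8.66 and 9.20 TPM in replicate 1. The gamma chain genes Tcrg-C1 and Tcrg-C2 had 13.2 and 8.68 TPM in replicate 2 and 5.10 and 3.31 TPM in replicate 1. The alpha chain gene Trac had 4.30 TPM in replicate 2 against 6.95 TPM in replicate 1, a ratio of 0.619 on 25 counts in replicate 2 and 57 in replicate 1, with a counting interval of 0.376 to 1.02 that includes 1. The pre-T alpha gene Ptcra therefore lay above Trac in replicate 2 and below it in replicate 1, whereas in both libraries the beta chain genes lay above both.

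Of the genes of recombination and early T lineage control, 18 reached a mean of 1 TPM, and 2 of these were at least 2-fold higher in replicate 2. With no filter 5 of the 24 listed genes were, beside 10.1% of all genes. The 2 that reached the mean were Rag2, the partner of Rag1, at 1.52 TPM in replicate 2 against 0.750 TPM in replicate 1, and Arpp21, at 5.02 TPM in replicate 2 against 1.94 TPM in replicate 1. Rag2 reached it through replicate 2 alone. The T lineage factor Bcl11b was at 2.33 TPM in replicate 2 against 1.72 TPM in replicate 1. Dntt, which adds untemplated bases to rearranged genes mostly after birth, had 3 counts in replicate 2 and 1 in replicate 1. The list median was 1.15. For Dtx1, a gene of the Notch pathway, the count ratio was 2.11 and the TPM ratio 1.31. In the list of partners of Il7r, 1 of 8 genes was at least 2-fold higher, the ligand gene Il7 at 3.29 TPM in replicate 2 against 1.4 TPM in replicate 1. The shared receptor chain Il2rg (23.3 TPM in replicate 2, 22.2 TPM in replicate 1) and the kinase Jak3 (7.48 TPM in replicate 2, 7.65 TPM in replicate 1), which many blood cells use, were nearly level.

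Thymic epithelium was followed through 15 further genes with a mean of 1 TPM, of which 4 were at least 2-fold higher in replicate 2 and 0 lower (median ratio 1.25), beside 3.26% of all genes higher. They were Tbata (16.7 TPM in replicate 2, 6.15 TPM in replicate 1), the cortical protease gene Prss16 (21.3 TPM in replicate 2, 8.20 TPM in replicate 1) and the keratins Krt14 (4.24 TPM in replicate 2, 1.81 TPM in replicate 1) and Krt5 (7.86 TPM in replicate 2, 3.65 TPM in replicate 1), which the basal cells of airways also express. Foxn1 was at 0.970 TPM in replicate 2 against 0.640 TPM in replicate 1 (56 counts in replicate 2, 52 in replicate 1), and the chemokine gene Ccl25 was at 16.6 TPM in replicate 2 against 9.88 TPM in replicate 1. Aire, of the thymic medulla, was at 1.80 TPM in replicate 2 against 1.96 TPM in replicate 1, but its count ratio was 1.31 (0.938 to 1.82), so its direction turned with the measure. The standard and immune proteasome subunits included none at 2-fold, and Psmb8 and Psmb9 were at 29.3 and 10.3 TPM in replicate 2 and 16.4 and 7.35 TPM in replicate 1.

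Lymphocytes other than thymocytes share several of these genes. In the natural killer cell list, 5 of 10 genes were at least 2-fold higher in replicate 2 with no filter, beside 10.1% of all genes. The 3 that reached a mean of 1 TPM were Klrd1, through replicate 2 alone (1.68 TPM in replicate 2, 0.430 TPM in replicate 1), Gzma (14.6 TPM in replicate 2, 4.67 TPM in replicate 1) and Nkg7 (4.23 TPM in replicate 2, 1.72 TPM in replicate 1). The summed level of the list was 22.2 TPM in replicate 2 against 7.67 TPM in replicate 1, and its part in the levels of the genes that these cells share with T cells was not tested. Its defining genes Ncr1 and Eomes were at 0.04 and 0.02 TPM in replicate 2 and at 0 in replicate 1, and Klrb1c at 0.290 TPM in replicate 2 against 0.210 TPM in replicate 1. In the gamma delta T cell list 1 of 4 was at least 2-fold higher, and 2 of 6 with no filter. The 1 was Cd163l1, which reached the mean through replicate 2, at 1.87 TPM in replicate 2 against 0.460 TPM in replicate 1, whereas Sox13 was at 5.10 TPM in replicate 2 against 5.62 TPM in replicate 1 and Blk at 0.270 TPM in replicate 2 against 0.0600 TPM in replicate 1. Of 3 group 2 innate lymphoid genes and of 4 B lineage genes with a mean of 1 TPM, 0 passed 2-fold. With no filter 2 innate lymphoid genes did, Il1rl1 (0.630 TPM in replicate 2, 0.300 TPM in replicate 1) and Icos (0.610 TPM in replicate 2, 0.210 TPM in replicate 1), and 0 B lineage genes. By counts both innate lymphoid genes were under 2-fold. The count ratio of Il1rl1 was 1.695 (1.08 to 2.68) and that of Icos 1.91 (0.847 to 4.42), an interval that includes 1. The 3 innate lymphoid genes that reached the mean were Kit, Areg and Rora, which other cells also express. The summed level of the innate lymphoid list was 57.7 TPM in replicate 2 against 60.8 TPM in replicate 1. That of the B lineage list was 26.5 TPM in replicate 2 against 21.7 TPM in replicate 1. There Pax5 was at 0.160 TPM in replicate 2, on 2 counts, and at 0 in replicate 1. The credibility bounds of Pax5 were 0.9905 to 3.22 TPM in replicate 2 against 0.631 to 2.22 TPM in replicate 1. These bounds overlap and lie above the TPM values, so Pax5 is not shown to be absent from replicate 1. Of 8 general leukocyte genes 0 passed 2-fold, with a median ratio of 1.22 and Ptprc, which encodes CD45 of all white blood cells, at 5.45 TPM in replicate 2 against 3.64 TPM in replicate 1. Macrophage genes also had 0 of 8 at 2-fold, a median ratio of 1.12 and Csf1r at 14.8 TPM in replicate 2 against 13.7 TPM in replicate 1.

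Genes of other organs of the trunk differed between the same libraries. Of 9 liver genes, 9 were at least 2-fold higher in replicate 2, with a median ratio of 8.35 and a summed level of 893 TPM in replicate 2 against 202 TPM in replicate 1. Of 9 skeletal muscle genes, 6 were at least 2-fold higher, with a median of 2.42 and sums of 603 TPM in replicate 2 against 234 TPM in replicate 1. The 9 heart genes had 0 at 2-fold in either direction, a median of 0.779 and sums of 1281 TPM in replicate 2 against 1471 TPM in replicate 1. Every one of these liver, skeletal muscle and heart genes was above 0 in both libraries. The part of the liver, skeletal muscle and heart differences in the result for the thymus genes was not tested. The parathyroid and thyroid glands lie in the neck near the thymus, and 0 of their 7 genes reached a mean of 1 TPM, with sums of 0.750 TPM in replicate 2 against 0.770 TPM in replicate 1 and with Gcm2 at 0 in both. With no filter Pax8 was at least 2-fold higher in replicate 2, on 1 count in each library. Pth was at least 2-fold lower, on 1 count in replicate 2 and 3 in replicate 1. Brown fat genes had 0 of 4 at 2-fold and sums of 31.0 TPM in replicate 2 against 33.5 TPM in replicate 1. With no filter 1 brown fat gene was at least 2-fold higher, Ucp1, on 4 counts in replicate 2 and 1 in replicate 1. The 10 lung genes had 0 at 2-fold and a median ratio of 1.10.

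**Figure D5:**
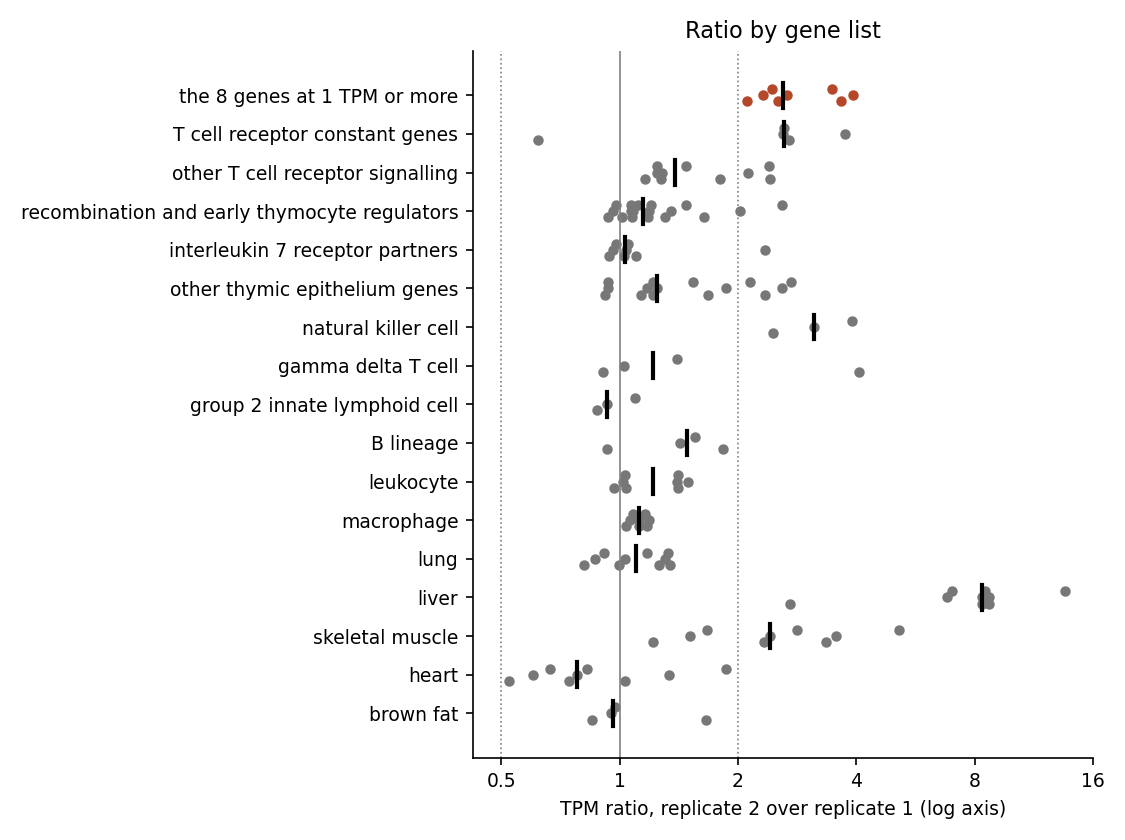
Ratio of replicate 2 to replicate 1 (TPM, log axis) for the members of each gene list whose mean reached 1 TPM (points, red for the 8 thymocyte and thymic epithelium genes) and the median of each (bar). The liver list lies highest, with a median of 8.35, the natural killer, T cell receptor constant region and skeletal muscle lists have medians between 2.42 and 3.12, the 8 thymocyte and thymic epithelium genes have one of 2.60, and the other lists shown have medians between 0.779 and 1.49.

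Genes outside these lists that the annotation classes as coding were compared with the medians of the 10 genes, 4.78 TPM in replicate 2 against 1.51 TPM in replicate 1. Those whose levels in both libraries lay nearest were Ckmt2 (4.75 TPM in replicate 2, 1.52 TPM in replicate 1), Lcn2 (4.70 TPM in replicate 2, 1.55 TPM in replicate 1), Plac9a (4.91 TPM in replicate 2, 1.65 TPM in replicate 1), Snhg11 (4.4 TPM in replicate 2, 1.58 TPM in replicate 1) and Rhd (5.19 TPM in replicate 2, 1.68 TPM in replicate 1). Their distances were 0.0170 to 0.198 log2 units over 2 libraries, among 13326 genes. Likeness over 2 libraries is weak and is given as a description.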

How the data were processed

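Total RNA was sequenced from 2 lung pools, with an input of 10 ng (RNA above 200 nt) each, per the labels. The authors quantified genes and transcripts on build mm10 with a GENCODE annotation, per the notes the authors deposited beside the tables; the tool, its version and the strand setting are not given in the sources used here. Per the file headers, the deposited expected counts estimate reads per gene, the deposited TPM and FPKM values divide them by effective length, and the posterior mean values are another estimate. The deposited percent values give each transcript's share of its gene's TPM. The deposited credibility bounds, a score for each estimate, and the lengths in nt are also the authors' values.

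Symbols, transcript classes and coordinates came from GENCODE M21 on the same build, later than the annotation the authors used, and promoter sequences from RefSeq. Symbols matched 42462 of 43346 gene rows, and 183 of 184 listed genes in 18 lists. A further 26249 rows with no gene identifier, and the spike-ins (2.32% of expected counts in replicate 2 and 2.30% in replicate 1), were not compared as genes. Both were part of the library totals that scale counts per 1000000, count ratios and their intervals. The spike-ins also served as an alternative scaling. The ratio is TPM in replicate 2 over replicate 1 with no pseudocount, a 0 being set to the level of 3 counts, for genes whose mean reached 1 TPM, and a threshold of 2-fold. Counting intervals are Poisson for counts and Clopper-Pearson for ratios, at 95%, and treat reads as independent molecules. With 1 group of 2 libraries nothing was tested and no p-value computed. The ratio of counts per library total and its counting interval were tested on simulated Poisson counts with known fold changes. The TPM ratio, the transcript shares and the sharing of reads between genes were not simulated. The genes and lists were chosen with earlier results of these data known. Named are the 10 genes, from each list genes past 2-fold (up to 6 by size) and its first 3, and the 5 nearest genes annotated as coding. For lists of other organs the text gives counts and sums. Alternatives were a pseudocount of 0.1 or 1, no filter or 5 TPM, counts per 1000000, TMM (edgeR 4.0.16) and size factors (DESeq2 1.42.0) on rounded expected counts, spike-ins, FPKM and posterior means. R 4.3.3, Python 3.11.15, pandas 2.3.3, NumPy 2.4.6, SciPy 1.17.1 and matplotlib 3.10.9 were used.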

Additional observations from a re-analysis of the deposited data

How the results depend on the processing

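Every setting tried kept all 10 genes higher in replicate 2. Their median ratio of 2.48 became 2.02 with a pseudocount of 1 and 2.68 with counts per 1000000. Of the 8 genes at a mean of 1 TPM, 8 passed 2-fold; 5 did with a pseudocount of 1, where the ratios of Cd3e, Cd8b1 and Rag1 were 1.85, 1.96 and 1.69. With a mean of at least 5 TPM 3 of 3 passed, and with no filter 9 of 10. TMM scaling, DESeq2 size factors, spike-in scaling and posterior mean TPM kept 8 of 8. The TMM, DESeq2, spike-in and counts per 1000000 settings divide the same counts by a constant per library, so they are not separate checks. Over all genes, the 502 higher in replicate 2 became 298 with a pseudocount of 1, 2264 with no filter and 125 with a mean of at least 5 TPM, and the 102 lower became 155 with a pseudocount of 0.1, 783 with no filter and 30 with 5 TPM. With no filter, which adds genes at very low levels, the list medians changed side, to 1.01 in place of 0.929 for innate lymphoid genes and to 1.05 in place of 0.962 for brown fat. With counts not divided by length, Rag1 and Psmb11 rank after Lck alone. With TMM scaling, which does not divide by length, the ratio of Themis was 2.73. The low counts of Il7r, Cd8b1 and Themis limit their ratios most. No paired analysis was possible because there is 1 group of 2 libraries.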
